A study of Mus musculus with 10 samples.

Results

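The genes that encode inhibitors of cyclin-dependent kinases (CDKs) were followed in muscle stem cells (MuSCs) that lack or keep Trpm7, a channel for Mg2+ and other divalent cations. The 8 genes Cdkn1a, Cdkn1b, Cdkn1c, Cdkn2a, Cdkn2b, Cdkn2c, Cdkn2d and Cdkn3 were taken by symbol, and all 8 were found among the 24608 gene symbols of the count table. Each of the 10 libraries was made from 3000 MuSCs, sorted as YFP-positive cells 3 days after injury of skeletal muscle by cardiotoxin (CTX). The 5 control libraries came from Trpm7 +/+ mice and the 5 Trpm7 cKO libraries from Trpm7 flox/flox mice. Both genotypes carried Pax7 CreERT2/+ and the Rosa26 YFP reporter, and both were given 5 daily injections of tamoxifen (TMX) and the CTX injury, so that Cre, tamoxifen and injury are shared. Cre was driven from Pax7, which limits deletion to cells that express Pax7 and their progeny. The mice were C57BL6 adults of 7 to 20 weeks, with controls matched for age and about as many males as females. The labels number the libraries 1 to 5 in each genotype without naming animals, and the library names of Trpm7 cKO replicates 4 and 5 share a number whose meaning is not given. Where libraries share an animal, a p-value measures only the spread between these libraries.

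CDK inhibitors act in families. The CIP/KIP proteins p21 (Cdkn1a), p27 (Cdkn1b) and p57 (Cdkn1c) bind cyclin-CDK complexes, above all those of CDK2, and hold cells at the entry to S phase. The INK4 proteins p16 (Cdkn2a), p15 (Cdkn2b), p18 (Cdkn2c) and p19 (Cdkn2d) bind CDK4 and CDK6 and keep D-type cyclins from activating them, while Cdkn3 encodes a phosphatase that removes the activating phosphate of CDK2. In the muscle lineage p21, p57 and p18 are known from cell cycle exit of differentiating myoblasts, and p27 from MuSCs that divide rarely.

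Transcripts were counted at their 3′ end as molecules with a unique molecular identifier (UMI), so that levels of different genes are compared as molecules and were not divided by gene length. Values are given as raw counts or as CPM (the count scaled to a common library size) normalized with TMM factors, which align most genes between libraries. Control libraries held 914361 to 1097709 counts and Trpm7 cKO libraries 205986 to 581121, without overlap (two-sided exact permutation test, p = 0.00794, which is as low as 5 libraries a group can reach). One count was therefore worth 0.994 to 1.16 normalized CPM in control and 1.66 to 5.52 normalized CPM in Trpm7 cKO libraries. Trpm7 itself was at 72.8 ± 8.71 CPM of the library total in control and 70.1 ± 22.8 in Trpm7 cKO libraries (SD, n = 5 each), and reads from the 3′ end do not check the deletion. The summed CPM of 20 MuSC identity genes overlapped between genotypes, at 4862 to 5580 in control and 3599 to 5782 in Trpm7 cKO libraries. Of the 17 that could be tested, 8 were higher and 5 lower. The sum therefore does not show these genes to be unchanged, also where it sets the scale below. Leukocyte markers did not overlap: the summed CPM of 32 leukocyte genes was 483 to 818 in control and 1673 to 7314 in Trpm7 cKO libraries, all 24 of them that could be tested were higher in Trpm7 cKO, and Cd3e and Cd79a were at 0 in every control library. Endothelial, smooth muscle and pericyte, and Schwann cell markers were likewise higher without overlap, and erythroid markers were higher with overlap. Markers of fibroadipogenic progenitors and fibroblasts overlapped, at a summed 2421 to 4122 CPM in control and 2280 to 4752 in Trpm7 cKO libraries (two-sided exact permutation test, p = 0.357), with 4 of 6 tested genes higher and 1 lower. The part of these markers in the results below was not tested, and in sorted cells measured in bulk, fewer cells of a type and less RNA per cell cannot be told apart.

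The genes lie at 7 separate places of the GRCm38 genome in the GENCODE M21 annotation, with Cdkn2a and Cdkn2b next to each other. Cdkn1a lies at chr17:29090976-29100727 on the plus strand, Cdkn1b at chr6:134920401-134925513 on the plus strand and Cdkn1c at chr7:143458339-143461050 on the minus strand. Cdkn2a lies at chr4:89274471-89294653, Cdkn2b at chr4:89306299-89311039 and Cdkn2c at chr4:109660876-109667189, all on the minus strand. Cdkn2d lies at chr9:21288410-21291407 on the minus strand and Cdkn3 at chr14:46760541-46771669 on the plus strand. No other annotated gene overlaps the last 500 bases of any of the 8 genes, and no stretch of 31 bases in the last 500 bases of their coding transcripts occurs in a transcript of another gene. The Cdkn2a transcripts for p16 and p19Arf share 2 of 3 exons, including the last, so that their counts cannot be told apart.

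Promoter sequence from RefSeq (GRCm38, windows from 250 bases before to 50 bases after a start) was found for 7 of the 8 genes in 10 windows, and Cdkn1c had no entry. Cdkn1a, the member with the largest number of counts, is the classical target of p53, and 2 of its starts are shown for the motifs that set them apart. The first is the upstream start, with a p53 response element in capitals (20 bases with no spacer, at most 1 base away from the consensus and both cores intact). The second is the main start, with the GC boxes GGGCGG in capitals. The window of Cdkn3 is shown for the motifs usual at genes of the late cell cycle, CCAAT and the cell cycle homology region TTTGAA, in capitals on either strand.
Cdkn1a upstream start, chr17:29090729-29090975, plus strand: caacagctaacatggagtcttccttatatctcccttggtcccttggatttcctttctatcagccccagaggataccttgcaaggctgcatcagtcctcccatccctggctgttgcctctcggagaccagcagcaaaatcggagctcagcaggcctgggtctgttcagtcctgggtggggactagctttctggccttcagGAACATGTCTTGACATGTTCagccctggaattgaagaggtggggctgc
Cdkn1a main start, chr17:29093519-29093768, plus strand: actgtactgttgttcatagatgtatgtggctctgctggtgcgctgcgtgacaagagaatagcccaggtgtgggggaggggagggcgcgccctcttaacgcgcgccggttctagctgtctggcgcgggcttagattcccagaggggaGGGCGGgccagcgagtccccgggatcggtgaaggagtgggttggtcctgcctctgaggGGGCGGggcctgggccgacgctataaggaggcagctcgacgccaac
Cdkn3, chr14:46760291-46760540, plus strand: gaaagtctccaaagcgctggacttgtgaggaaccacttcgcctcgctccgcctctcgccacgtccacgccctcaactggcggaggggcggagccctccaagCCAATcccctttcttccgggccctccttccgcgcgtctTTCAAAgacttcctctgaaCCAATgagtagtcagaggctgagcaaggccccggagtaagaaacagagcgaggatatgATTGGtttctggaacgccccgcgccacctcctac
Among 32851 windows of 300 bases, searched on both strands, 18 (0.0548%) held the p53 element, and Cdkn1a was the only member among them, with the element starting at position -51. GGGCGG occurred in 35.7% of all windows and in at least 1 window of each of the 7 members with an entry. CCAAT occurred in 37.4% of all windows, with 4 matches in the Cdkn3 window and 3 in that of Cdkn1b, and at Cdkn2a a match overlaps that of a GC box. TTTGAA occurred in 17.9% of all windows, including those of Cdkn2b and Cdkn3. The E-box CAGCTG, in 16.3% of all windows, was found at Cdkn1a, and the FOXO motif TGTTTAC, in 3.65% of all windows, was found at no member. These are matches of letters, not sites shown to be bound.

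Cdkn1a made up most of the CDK inhibitor transcripts in both genotypes. Its mean level in control MuSCs was 2054 ± 156 normalized CPM (SD, n = 5), which ranked 35 among the 7753 genes tested, and in Trpm7 cKO MuSCs it was 1313 ± 201 normalized CPM (SD, n = 5), which ranked 74. In control MuSCs the other members followed in the order Cdkn1c, Cdkn2c, Cdkn1b, Cdkn3, Cdkn2d, Cdkn2b and Cdkn2a, from 114 down to 4.18 normalized CPM. The ranges of neighbours in this order overlapped except between Cdkn1a and Cdkn1c. In Trpm7 cKO MuSCs Cdkn1b came before Cdkn2c, at 75.5 and 64.0 normalized CPM, with overlapping ranges, and the ranges were apart between Cdkn1a and Cdkn1c and between Cdkn2c and Cdkn3.

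**Figure D1:**
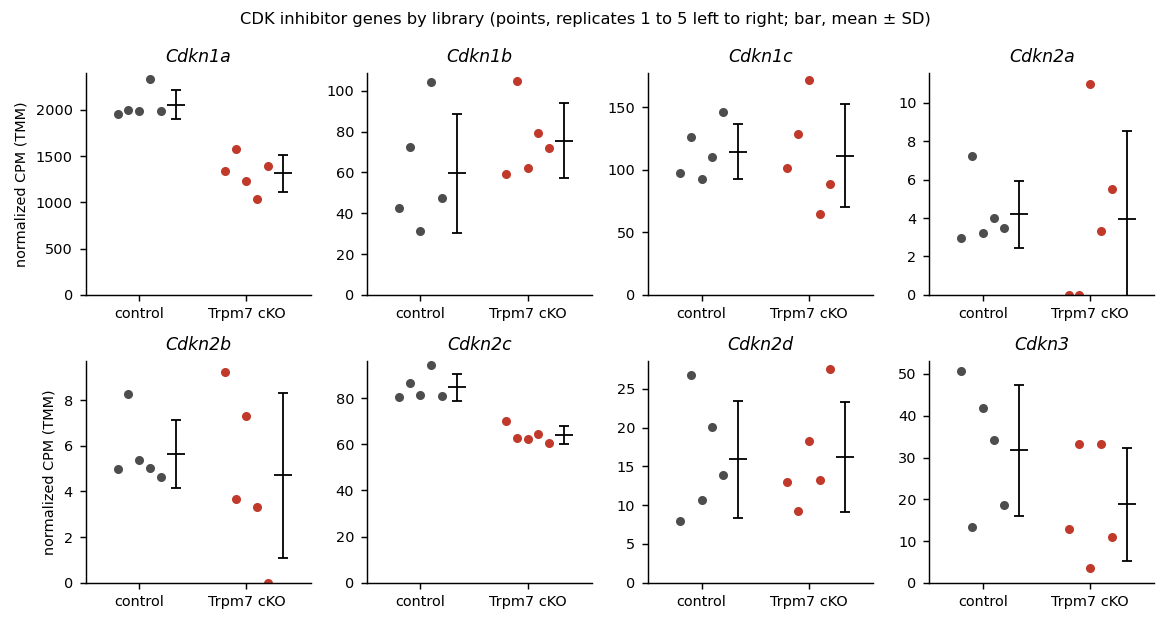
Normalized CPM (vertical axes, each from 0) of the 8 CDK inhibitor genes in 5 control libraries (gray) and 5 Trpm7 cKO libraries (red). Points are libraries in the order of their replicate numbers and bars are the mean ± SD. The genotypes are apart for Cdkn1a and Cdkn2c and overlap for the other 6 genes.

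Of the 8 genes, 6 passed the filter on low counts and were tested with edgeR's quasi-likelihood test, adjusted by Benjamini-Hochberg over all 7753 genes. Cdkn1a and Cdkn2c were lower in Trpm7 cKO MuSCs at an adjusted p below 0.05, while 24.1% of all tested genes were. None of the 6 was higher, against 24.6% of all tested genes. At an unadjusted p below 0.05 the count of higher members was also 0, and it was 0 with DESeq2 and with limma-voom. None was past both thresholds of the study (adjusted p below 0.05 and a log2 fold change beyond 1.5), where 12.0% of all tested genes were, and DESeq2 and limma-voom also placed 0 there. At an unadjusted p below 0.05, 2 members were lower. A count of 2 lower members among 6 is read against that share of all genes and is no result about the group. The median log2 fold change was -0.28 over the 6 tested members and -0.01 over all tested genes.

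Cdkn1a, which encodes p21, fell by 0.65 on the log2 scale in Trpm7 cKO MuSCs. This is RNA of cells sorted after injury. The study stained p21 protein in cultured MuSCs and reported similar levels in both genotypes, which is another measure in another setting. Control libraries held 1963, 1939, 1858, 2323 and 1721 counts. Trpm7 cKO replicates 1 to 4 held 724, 857, 336 and 624 counts, and replicate 5, the smallest library, held the fewest. After normalization these were 1952, 2002, 1993, 2332 and 1992 CPM in control and 1338, 1577, 1228, 1034 and 1391 CPM in Trpm7 cKO libraries. Every Trpm7 cKO library was below every control library, as was the case for 17.9% of all tested genes. The fold change was -0.65 ± 0.14 (log2, SE, 95% confidence interval -0.94 to -0.35, edgeR adjusted p = 0.000786), a level 36.1% lower, and 19.8% of tested genes had a lower fold change. The call was kept under all 22 alternatives, with log2 fold changes from -1.81 to -0.52. The summed leukocyte CPM of Trpm7 cKO replicates 1 to 5, in the same order as these Cdkn1a levels, was 4283, 1673, 4246, 7314 and 6793, and its part in the Cdkn1a difference was not tested. Scaled on the MuSC identity genes instead, the fold change was -0.54 (edgeR adjusted p = 0.0128).

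Cdkn2c, which encodes p18, was lower by a smaller amount. Control libraries held 81, 84, 76, 94 and 70 counts, and Trpm7 cKO libraries 38, 34, 17, 39 and 11. These were 80.5, 86.7, 81.5, 94.4 and 81.04 normalized CPM in control and 70.2, 62.6, 62.1, 64.6 and 60.7 normalized CPM in Trpm7 cKO libraries. The genotypes did not overlap, as was the case for 17.9% of all tested genes with control above. Within each genotype the counts varied no more than counting noise (chi-square over degrees of freedom of 0.569 in control and 0.285 in Trpm7 cKO). The fold change was -0.39 ± 0.15 (log2, SE, 95% confidence interval -0.71 to -0.07, edgeR adjusted p = 0.0392), and 30.1% of tested genes had a lower fold change. This call was not firm: it was lost with DESeq2 (adjusted p = 0.0844), with library totals in place of TMM factors (adjusted p = 0.160), with scaling on the MuSC identity genes (adjusted p = 0.285), with a stricter filter (adjusted p = 0.0534) and after thinning to 205986 counts per library (adjusted p = 0.345). It was also lost without any one of control replicates 1, 2, 4 and 5 (edgeR adjusted p = 0.0543, 0.0688, 0.0891 and 0.0565) or Trpm7 cKO replicates 2, 3, 4 and 5 (edgeR adjusted p = 0.0819, 0.0694, 0.0544 and 0.0579).

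**Figure D2:**
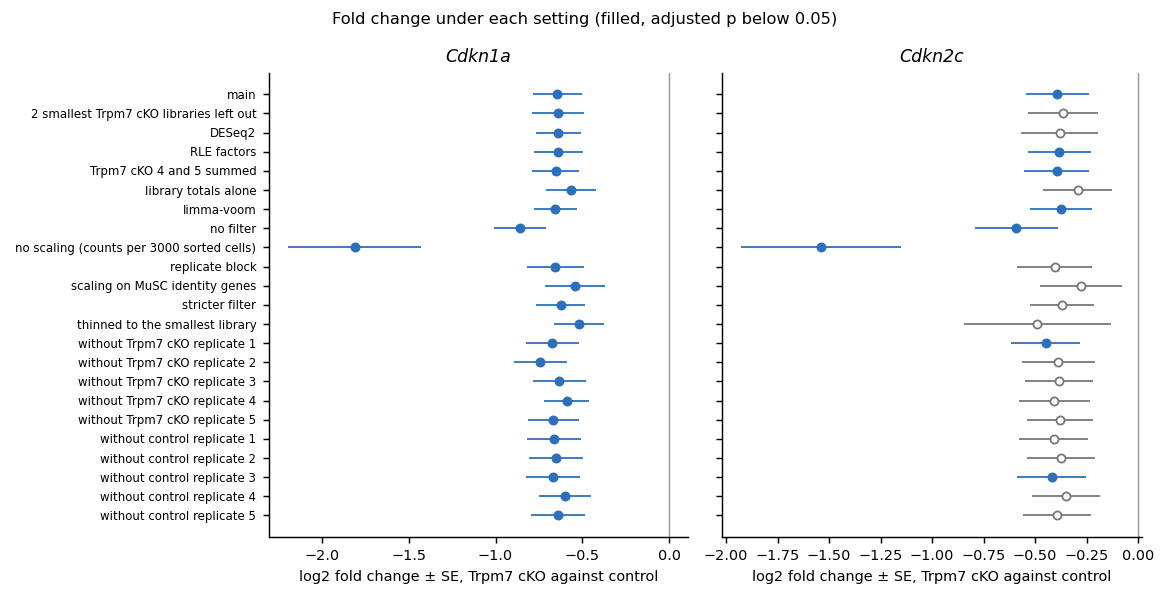
Log2 fold change of Cdkn1a (left) and Cdkn2c (right), Trpm7 cKO against control, in the main test and under each alternative (rows), with bars for ± 1 SE and filled points for an adjusted p below 0.05. Cdkn1a is filled in every row, between -1.81 and -0.52, while Cdkn2c is below 0 in every row and filled in 8 of 23.

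Among the other CIP/KIP genes, neither Cdkn1b nor Cdkn1c passed the test. Cdkn1b was at 42.8, 72.3, 31.1, 104 and 47.5 normalized CPM in control and 59.1, 105, 62.1, 79.5 and 71.7 normalized CPM in Trpm7 cKO libraries. The control libraries spread widely, over 3.36 times from lowest to highest, with replicate 4 the highest, and the genotypes overlapped. The log2 fold change was 0.36 ± 0.29 (SE, 95% confidence interval -0.24 to 0.96, edgeR adjusted p = 0.316). Without control replicate 4 it was 0.66 (edgeR adjusted p = 0.0334), so that 1 library decides this call.

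Cdkn1c was at 97.5, 126, 92.2, 110.4 and 146 normalized CPM in control and 102, 129, 172, 64.6 and 88.3 normalized CPM in Trpm7 cKO libraries. The Trpm7 cKO libraries lay on both sides of the control range. The log2 fold change was -0.07 ± 0.21 (SE, 95% confidence interval -0.51 to 0.37, edgeR adjusted p = 0.821), and its sign was not stable, being 0.09 without Trpm7 cKO replicate 4 and 0.05 without control replicate 5. Cdkn1c is expressed from the maternal allele in a domain controlled by the noncoding RNA Kcnq1ot1. Of 10 genes of this domain 5 were tested, with 2 lower (against 24.1% of all tested genes) and none higher (24.6%). This count is no result about the domain, and in 3 alternatives the number called moved to values from 0 to 5. Kcnq1ot1 fell by 0.57 on the log2 scale (SE 0.18, edgeR adjusted p = 0.0147), from 180 ± 37.3 to 124 ± 27.7 normalized CPM (SD, n = 5 each), and Cd81, a tetraspanin, fell by 0.67 (edgeR adjusted p = 0.00814). Phlda2, an imprinted growth regulator, was too low to be tested, at 1.65 ± 0.85 and 0.37 ± 0.82 normalized CPM (SD, n = 5 each).

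Of the INK4 genes, Cdkn2a and Cdkn2b were close to the limit of detection. Cdkn2a had 3, 7, 3, 4 and 3 counts in control and 0, 0, 3, 2 and 1 counts in Trpm7 cKO libraries. Cdkn2b had 5, 8, 5, 5 and 4 counts in control and 5, 2, 2, 2 and 0 counts in Trpm7 cKO libraries. Both were removed by the filter and had no test in the main fit. Summed over libraries and set against the summed totals, the ratio of Trpm7 cKO to control was 0.706 for Cdkn2a (95% interval 0.232 to 1.82, 6 against 20 counts) and 0.959 for Cdkn2b (95% interval 0.429 to 2.00, 11 against 27 counts), where the exact intervals cover counting error only. A difference was not detectable at this depth. With no filter the log2 fold changes were -0.69 (edgeR adjusted p = 0.491) and -0.33 (edgeR adjusted p = 0.698).

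The gene next to this pair on chromosome 4 moved: Mtap, which encodes an enzyme of methionine salvage, fell by 1.53 on the log2 scale (SE 0.21, edgeR adjusted p = 6.74e-06), from 309 ± 45.9 to 102 ± 42.8 normalized CPM (SD, n = 5 each). Klhl9, the other tested neighbour of 5 listed, was at 158 ± 21.8 and 161 ± 55.3 normalized CPM. Polycomb proteins hold the Cdkn2a-Cdkn2b locus silent in many cells. Of 17 genes of Polycomb subunits, their partners and a demethylase that works against them, 12 were tested, with 3 higher, where 24.6% of all tested genes were, 1 lower, where 24.1% were, and a median log2 fold change of 0.04. Kdm6b, the demethylase, which removes the Polycomb mark, is counted among the 3 and rose by 1.81 (SE 0.31, edgeR adjusted p = 0.000319), and Ezh1 (1.09), a histone methyltransferase, and Jarid2 (0.54), a cofactor of that enzyme family, rose as well. Suz12, a core subunit, fell by 0.45 (edgeR adjusted p = 0.0364). Bmi1, a repressor of Cdkn2a, was at 109 ± 20.9 and 91.2 ± 31.1 normalized CPM (edgeR adjusted p = 0.401), and Ezh2, the main methyltransferase, at 87.5 ± 21.1 and 64.9 ± 14.6 normalized CPM (edgeR adjusted p = 0.0636). Without Trpm7 cKO replicate 4, 7 genes of this list were called.

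Cdkn2d, which encodes p19, had 8, 26, 10, 20 and 12 counts in control and 7, 5, 5, 8 and 5 counts in Trpm7 cKO libraries. At 15.9 ± 7.60 and 16.3 ± 7.11 normalized CPM (SD, n = 5 each) the genotypes overlapped. On the log2 scale the change was -0.16 ± 0.38 (SE, 95% confidence interval -0.95 to 0.63, edgeR adjusted p = 0.755). Cdkn3 had 51, 13, 39, 34 and 16 counts in control and 7, 18, 1, 20 and 2 counts in Trpm7 cKO libraries. These were 31.7 ± 15.6 and 18.8 ± 13.6 normalized CPM (SD, n = 5 each), with overlap and a spread of 3.78 times among control and 9.07 times among Trpm7 cKO libraries. For Cdkn3 the log2 fold change was -0.55 ± 0.43 (SE, 95% confidence interval -1.47 to 0.36, edgeR adjusted p = 0.312). For both genes the interval allows a fall or a rise.

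The make-up of the CDK inhibitor transcripts is a measure within libraries that needs no scaling between them. The 8 genes together gave 1993 to 2694 counts in control and 300 to 1043 counts in Trpm7 cKO libraries, or 2245 ± 187 and 1573 ± 235 CPM of the library total (SD, n = 5 each). Cdkn1a took 86.7% ± 1.05 of them in control and 81.6% ± 2.36 in Trpm7 cKO libraries (SD, n = 5 each), without overlap, at 85.5% to 88.2% against 78.5% to 84.0%. Since Cdkn1a makes up most of the sum, this restates its fall against the other members and is no separate result. How often other genes come apart on such a measure was not determined. Cdkn1b took 2.46% ± 1.00 and 4.72% ± 1.04, and Cdkn1c 4.84% ± 0.983 and 6.87% ± 2.40 (SD, n = 5 each), both with overlap. The shares of the other 5 genes also overlapped.

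Of the D-type cyclins and their kinases, 4 of 5 were tested, with 2 lower (against 24.1% of all tested genes) and none higher (24.6%). This split depended on the scaling, with Cdk4 lower and Ccnd1 higher with library totals (0.53, edgeR adjusted p = 0.0477) and Cdk4 alone lower with scaling on the MuSC identity genes. Cdk4 fell by 1.53 on the log2 scale (SE 0.18, edgeR adjusted p = 1.07e-06), from 625 ± 36.3 to 209 ± 69.2 normalized CPM (SD, n = 5 each). Its genotypes did not overlap, as was the case for 17.9% of all tested genes with control above. Cdk6, its close relative, fell by 0.47 (SE 0.17, edgeR adjusted p = 0.0285), and 1 gene of this list was called without control replicate 2, control replicate 3 or Trpm7 cKO replicate 5. The D-type cyclin genes Ccnd1, at 357 ± 97.2 and 488 ± 135 normalized CPM (edgeR adjusted p = 0.0781), and Ccnd2, at 33.1 ± 5.79 and 40.5 ± 29.0 normalized CPM (edgeR adjusted p = 0.765), did not pass, and Ccnd3, at 7.09 ± 2.08 and 8.63 ± 4.35 normalized CPM, was not tested.

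All 6 tested cyclins and kinases of S phase and mitosis were lower, against 24.1% of all tested genes. Their median log2 fold change was -1.66. Cdk1, the mitotic kinase, fell by 2.12 (SE 0.27, edgeR adjusted p = 1.42e-05), from 547 ± 149 to 123 ± 50.9 normalized CPM (SD, n = 5 each). Cdk2, the kinase bound by the CIP/KIP proteins, fell by 0.67 (SE 0.18, edgeR adjusted p = 0.00396), from 131 ± 15.98 to 86.2 ± 23.7 normalized CPM (SD, n = 5 each). The cyclin genes Ccne1 (-2.20), Ccna2 (-1.68), Ccnb1 (-1.64) and Ccnb2 (-1.02) fell without overlap of the genotypes, as did 17.9% of all tested genes. For Cdk2 the genotypes overlapped.

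The ratio of an inhibitor to its target kinase in the same library moves with both genes, and Cdk4 fell by more than any tested inhibitor gene. With 0.5 added to each count, the Cdkn2c to Cdk4 ratio was 0.124 to 0.152 in control and 0.236 to 0.511 in Trpm7 cKO libraries, without overlap, a difference of 1.26 on the log2 scale between means of -2.87 ± 0.14 and -1.62 ± 0.49 (SD, n = 5 each). The same separation from Cdk4, with Trpm7 cKO above, was found for 76.7% of all tested genes, whose median difference was 1.63, and 68.3% of them had a larger difference than Cdkn2c, so that the separation is no result about Cdkn2c. The Cdkn1a to Cdk2 ratio was 12.9 to 21.4 and 11.1 to 22.9, with log2 means of 3.97 ± 0.27 and 3.94 ± 0.51 (SD, n = 5 each). The ratio of Cdkn1b to Cdk2 was 0.239 to 0.963 in control and 0.6 to 1.53 in Trpm7 cKO libraries, with overlap, and those of Cdkn1c and Cdkn3 to Cdk2 and of Cdkn2a, Cdkn2b and Cdkn2d to Cdk4 overlapped too. These are ratios of RNA molecules in a library, given as a description without a test.

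**Figure D3:**
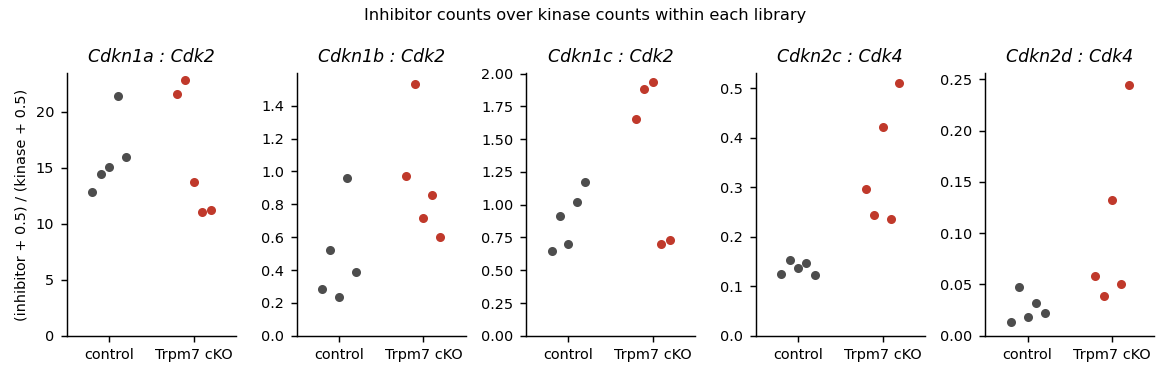
Ratio of inhibitor to kinase counts in each library, with 0.5 added to both counts (vertical axes, each from 0), for 5 pairs in control (gray) and Trpm7 cKO (red) libraries, in the order of replicate numbers. The genotypes are apart for Cdkn2c to Cdk4, at 0.124 to 0.152 against 0.236 to 0.511, and overlap for the other 4 pairs, while 76.7% of all tested genes are apart from Cdk4 in the same way.

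CDK-activating kinase and the CDC25 phosphatases switch on the complexes that CDK inhibitors switch off, and the kinases of Wee1 and Pkmyt1, which stand in the same list, hold them inactive. Of 8 genes 6 were tested, with 3 lower (against 24.1% of all tested genes) and 1 higher (24.6%). Wee1, the kinase that places the inhibitory phosphate on CDK1 and CDK2, fell by 1.59 on the log2 scale (SE 0.33, edgeR adjusted p = 0.000564). Cdk7 (-0.70), the activating kinase, and Cdc25b (-0.75), a phosphatase of mitotic entry, fell by less, and Mnat1 (0.74), the assembly factor of the activating kinase, rose.

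Downstream of the kinases, 12 of 13 pocket protein and E2F genes were tested. Of these 6 were lower (against 24.1% of all tested genes) and 1 was higher (24.6%). The genes past both thresholds were E2f2, which fell by 2.49 (SE 0.20, edgeR adjusted p = 1.78e-08), E2f8, which fell by 2.29 (SE 0.26, edgeR adjusted p = 6.77e-07), and E2f4, which fell by 1.76 (SE 0.19, edgeR adjusted p = 3.79e-07). E2f2 drives S phase genes, E2f8 is a late repressor and E2f4 a partner of the pocket proteins. Rb1, the pocket protein whose phosphorylation CDK inhibitors prevent, was at 57.6 ± 6.11 and 46.6 ± 18.1 normalized CPM (edgeR adjusted p = 0.425).

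The p27 and p21 proteins are removed through ubiquitin ligases and the proteasome. Of 16 listed symbols of this machinery 15 were in the count table and 13 were tested. Of these 8 were lower (against 24.1% of all tested genes) and 1 was higher (24.6%). Skp2, the receptor that marks p27 for degradation, fell by 1.41 on the log2 scale (SE 0.20, edgeR adjusted p = 8.70e-06), from 94.0 ± 12.6 to 33.6 ± 9.30 normalized CPM (SD, n = 5 each). Its cofactor Cks1b fell by 1.83, Psme3, an activator of the proteasome, by 1.74, and Dtl, the receptor that marks p21 in S phase, by 1.51, each past both thresholds. The 1 higher gene was Fbxw7, the receptor for cyclin E, which stands in the same list. It rose by 1.40 (SE 0.25, edgeR adjusted p = 0.000131).

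Among 21 transcription factors known to act on CDK inhibitor genes, 18 were tested. Of these 9 were higher (against 24.6% of all tested genes) and 2 lower (24.1%), with a median log2 fold change of 0.83. The list mixes activators and repressors, and factors known to activate Cdkn1a were both lower and higher. Trp53, which encodes p53, fell by 1.12 (SE 0.15, edgeR adjusted p = 7.15e-06), from 498 ± 74.3 to 228 ± 41.7 normalized CPM (SD, n = 5 each). Myod1, the myogenic factor, fell by 2.01 (SE 0.16, edgeR adjusted p = 1.84e-08), from 744 ± 111 to 181 ± 36.6 normalized CPM (SD, n = 5 each). The genes past both thresholds on the other side were Egr1 (2.31), an immediate early factor, and Foxo1 (1.52), a forkhead factor known to activate Cdkn1a and Cdkn1b. Klf4 (1.42) and Smad3 (1.05), which are also known to activate Cdkn1a, were higher too. Another 7 tested factors did not pass, among them Klf6 (0.01), Sp1 (-0.13) and Smad4 (0.12), with edgeR adjusted p = 0.965, 0.607 and 0.604.

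The p53 element shown above Cdkn1a was set beside the other p53 targets. Of 25 listed genes 23 were tested, with 8 higher, 5 lower and a median log2 fold change of 0.30, beside 24.6% higher and 24.1% lower among all tested genes. Without scaling between libraries the same targets were 3 higher and 12 lower. Fas (2.92), a death receptor, Sesn1 (2.44), a stress protein, Btg2 (2.27), an antiproliferative gene, Ddit4 (1.77), an inhibitor of mTORC1, and Phlda3 (1.65), a repressor of Akt, were higher past both thresholds, while Tigar (-1.52), a regulator of glycolysis, was lower past both. Mdm2, the ligase and feedback target of p53, was at 317 ± 58.0 and 263 ± 55.3 normalized CPM (edgeR adjusted p = 0.240). Of the 18 genes whose window held the element, 3 were tested and Cdkn1a was the one that passed, while Gtse1, a negative regulator of p53, was at -0.13 (edgeR adjusted p = 0.637) and Rps27l, a ribosomal protein paralog, at -0.30 (edgeR adjusted p = 0.137) on the log2 scale. No gene of the 18 was among the 25 listed p53 targets, a list that leaves out Cdkn1a by its definition. The search covered only windows of 300 bases and allowed at most 1 mismatch and no spacer. Elements elsewhere or further from the consensus were not seen, so this cannot show whether the listed targets carry an element.

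The last 2 lists describe the state of the cells beside the inhibitors. Of 27 genes of S phase and mitosis 23 were lower, against 24.1% of all tested genes, and none was higher. Their median log2 fold change was -1.02. The proliferation marker Mki67 fell by 1.34 (SE 0.23, edgeR adjusted p = 9.38e-05), from 309 ± 43.7 to 116 ± 58.5 normalized CPM (SD, n = 5 each). Rrm2 (-2.30), Ube2c (-1.70), Aurka (-1.56), Ccnf (-1.55) and Plk1 (-1.51), which act in nucleotide synthesis and mitosis, were past both thresholds. Of 16 tested quiescence genes of MuSCs 13 were higher, against 24.6% of all tested genes, and none was lower, with a median of 0.94. Those past both thresholds were Rgs5 (3.49), Chrdl2 (3.07), Cd34 (2.34), Tenm4 (1.78) and Fos (1.6). Of these, Rgs5 is itself counted among the smooth muscle and pericyte markers given above. Cd34 is counted among the markers of fibroadipogenic progenitors and fibroblasts, whose sum overlapped between genotypes. It is also known from endothelial cells, whose markers were higher in the same libraries. The part of such cells in these values was not tested. Fos and Jun, both among the 13, are AP-1 genes that are also known to rise early in MuSC activation, and without them 11 of 14 were higher. Cdkn1a was lower in the same libraries as the proliferation list.

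**Figure D4:**
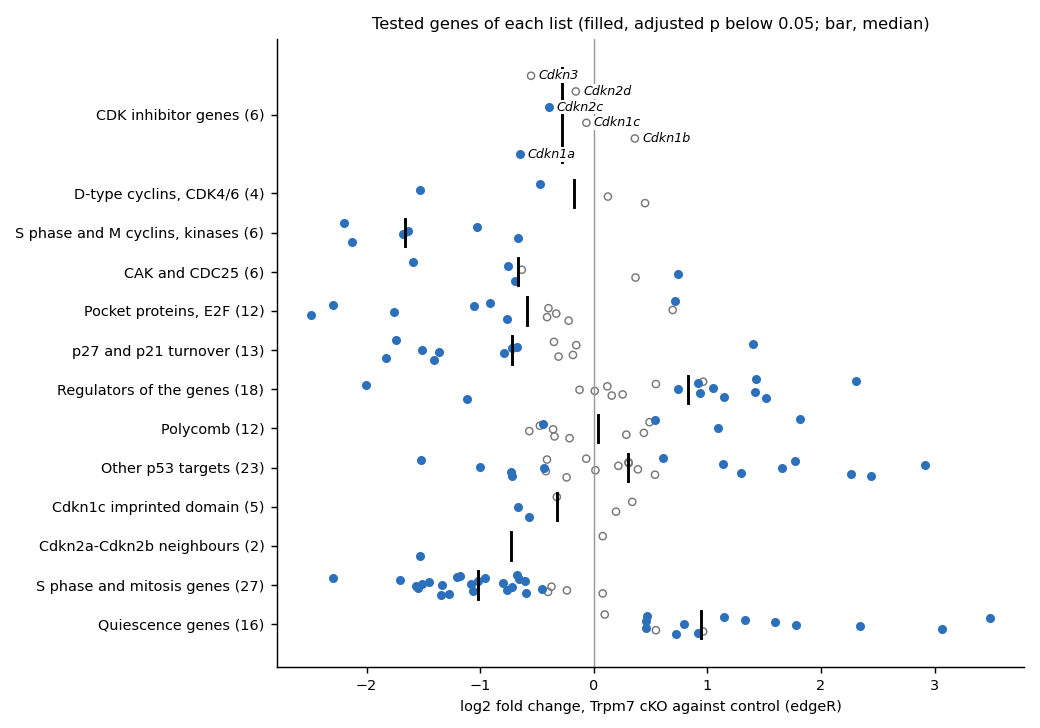
Log2 fold change, Trpm7 cKO against control (horizontal axis), of the tested genes of the CDK inhibitor group and of 12 lists (rows, number tested in brackets). Filled points have an adjusted p below 0.05 and bars are medians. The tested CDK inhibitor genes lie between -0.65 and 0.36, and the cyclins and kinases of S phase and mitosis have the lowest median, -1.66.

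The direction of these changes is relative to the other genes of a library. Of the calls over all genes, 49.4% were lower with TMM factors, 41.0% with library totals alone and 37.8% when the MuSC identity genes set the scale. Left unscaled, as counts per 3000 sorted cells, the data put the median gene at -1.15, with 93.1% of calls on the lower side. Such counts keep the difference in library totals. RNA per cell cannot be told apart in them from the depth and capture of a library. In those units Cdkn1a was at -1.81, Cdkn2c at -1.54, Cdkn3 at -1.66 and Cdkn1c at -1.25, and Cdkn1b turned to -0.78 (edgeR adjusted p = 0.0568). The medians of the regulators (-0.30), the Polycomb genes (-1.10), the other p53 targets (-0.85) and the quiescence genes (-0.17) turned below 0 as well. Relative to the median of all genes in each scaling, Cdkn1a lay between -0.66 and -0.64 and Cdkn2c at -0.39.

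The genes whose log2 CPM followed each member most closely over the 10 libraries were found by Pearson's r, which is a description, since the libraries share genotype and depth. For Cdkn1a they were Lig3 (r = 0.976, and 0.891 after the mean of each genotype was subtracted), Tsc2 (0.974 and 0.878) and Polr3f (0.973 and 0.854). Cdkn2c was followed by Antxr2 (0.964 and 0.699), Cul4a (0.963 and 0.794) and Socs1 (0.963 and 0.758). Cdkn1b was followed by Ip6k2 (0.901 and 0.880), Cntln (0.896 and 0.95) and Ndst1 (0.877 and 0.849). For Cdkn1c the nearest genes were Nutf2 (0.922 and 0.948), Srebf2 (0.861 and 0.858) and Gfpt1 (0.858 and 0.876). Cdkn2d came with Slc4a2 (0.825 and 0.825), Asl (0.821 and 0.849) and Smap1 (0.817 and 0.874), and Cdkn3 with Cenpx (0.916 and 0.912), Map2k4 (0.903 and 0.891) and Stx12 (0.888 and 0.894). For the first 2 members the values were lower once genotype was removed, and for the other 4 they were about as high. Those 4 had no called difference between genotypes, so that the subtraction could change little. The genes were picked for the highest r among all tested genes, and high values can come from that choice alone.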

How the data were processed

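RNA was measured in 5 control and 5 Trpm7 cKO libraries of sorted MuSCs by CEL-Seq2. Per the labels and the methods of the study, the authors extracted UMIs with UMI-tools 1.1.4, trimmed reads with Trim Galore 0.6.10, aligned them to GRCm38 with HISAT2 2.2.1, assigned them with featureCounts 2.0.6 and removed UMI duplicates. The deposited values are whole-number counts per gene without normalization. Annotation release and strand setting of the counting are not given in the sources used here. Of 24620 entries, 12 repeated a symbol, of which the one with more counts was used, and no member was among them.

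The test was edgeR 4.0.16 (R 4.3.3) on these counts. filterByExpr (minimum count 10, minimum total 15) left 7753 genes, followed by TMM factors, a robust quasi-likelihood fit with genotype as the only term and Benjamini-Hochberg adjustment. Single values were compared by exact permutation. Log2 CPM used a prior count of 2. The fit was checked on simulated counts with 200 changed genes. The sources do not say whether the replicate numbers pair libraries of the 2 genotypes, and the main fit did not pair them. Alternatives were DESeq2 1.42.0, limma-voom (limma 3.58.1), other scalings and filters, thinning, a replicate block and each library left out. The members, the gene lists and the rule for named genes were chosen with earlier results of these data known. That rule named all members, the genes of each list past both thresholds or otherwise up to 4 with the lowest adjusted p below 0.05, a few fixed regulators, and the 3 genes most like each member. Gtse1, Rps27l, Klf4, Klf6, Sp1, Smad3, Smad4 and Jun were named after their values were seen. Depth limits the low genes, and the exact intervals of Cdkn2a and Cdkn2b cover counting error only.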

Additional observations from a re-analysis of the deposited data

Results flagged for a closer look

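Of 16 groups of 5 libraries examined, 3 held a library far from the other 4, where chance gives about 1 in 20. The Cdkn1a level of control replicate 4 was 2332 normalized CPM, while the other control libraries lay between 1952 and 2002. Without it the fold change of Cdkn1a was -0.60 on the log2 scale. The other groups concern genes near the limit of detection. Cdkn2a was at 7.23 normalized CPM in control replicate 2, against 2.98 to 4.02 in the other control libraries, a difference of a few counts. Cdkn2b was at 8.26 normalized CPM in the same library, against 4.63 to 5.36.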

How the results depend on the processing

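The fold change of Cdkn1a kept its direction and its call under all 22 alternatives, with adjusted p from 1.43e-07 to 0.0137. The number of members with an adjusted p below 0.05 was 2 in the main test, 3 with no filter, 5 with no scaling and 1 with DESeq2, library totals, scaling on the MuSC identity genes, a stricter filter, thinning or without the 2 smallest Trpm7 cKO libraries, an alternative chosen after seeing the data. It was 1 to 2 with each library left out, and 3 members were past both thresholds with no scaling, against 0 otherwise. Cdkn2c lost its call at -0.38 (DESeq2), -0.29 (library totals), -0.28 (MuSC identity genes), -0.37 (stricter filter), -0.49 (thinning) and -0.36 (without the 2 smallest Trpm7 cKO libraries), and lay between -0.45 and -0.35 with each library left out. Thinning and left-out libraries test fewer counts. The cause of the other losses was not tested.

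With no scaling, which keeps the difference in library totals, Cdkn1b reversed to -0.78, and Cdkn1c (-1.25), Cdkn2d (-1.32) and Cdkn3 (-1.66) became significant. Cdkn3 was also called with no filter (-0.74). Cdkn1c reversed to 0.0204 (library totals), 0.0364 (MuSC identity genes), 0.496 (thinning), 0.0897 (without Trpm7 cKO replicate 4) and 0.0514 (without control replicate 5). With each library left out, Cdkn1b lay between 0.18 and 0.66, Cdkn1c between -0.25 and 0.09, Cdkn2d between -0.31 and -0.01 and Cdkn3 between -0.85 and -0.31. Cdkn2d could not be tested without any 1 control library, with the stricter filter or after thinning, nor Cdkn3 after thinning.

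Libraries of the same number did not deviate together (correlations from -0.12 to 0.18). With 5 libraries a group this cannot show whether the numbers pair them. With the replicate block, 1 member was called and Cdkn2c was at -0.40 (edgeR adjusted p = 0.0762). Replicate 5 alone correlated best with its own number.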
